A study of Mus musculus with 12 samples.

Results

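Krt7, Krt8, Krt18, Krt19, Krt23, Epcam, Cd24a, Muc1 and Spp1 are genes of bile duct cells and of simple epithelia. They were followed here in the liver of Abcb11-/- mice and in the lung before and after birth. These genes and the gene lists below were chosen with earlier results of these data known. Counts from them are therefore descriptions beside the shares of all genes. Each gene was read from the probe set named for it alone, and where several exist, from the brightest in that tissue. Of the 9 genes, 8 were measured, among 17097 genes measured in all. No probe set was named for Spp1 alone in the gene table used here, so Spp1, which encodes the secreted phosphoprotein osteopontin, was not analysed here.

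Abcb11 encodes the bile salt export pump of the hepatocyte canaliculus, and the study asked how a mother's lack of it affects her offspring. All mice were C57BL/6 without other treatment. The liver came from 1.5-month-old female mice, 3 WT and 3 Abcb11-/-, with 1 array per labelled replicate. The lungs all came from Abcb11+/- offspring, of either a WT mother and an Abcb11-/- father or an Abcb11-/- mother and a WT father, with 1 array for each mother and stage. The stages were E17.5, E18.5 and, on the day of birth, PN0. How many pups went into a lung array is not stated, and Abcb11-/- mice lack the gene in every cell. RNA was read on Affymetrix HT MG430 PM plate arrays, whose values are log2 signals, so that a difference of 1 is a 2-fold difference. Array medians were 3.15 to 3.18 in liver and 3.63 to 3.68 in lung, and no level was set against that of the other tissue. Nor were levels of single genes compared as amounts of RNA, since probes differ in brightness. In the summed signals of gene lists below, brighter probe sets weigh more. Liver Abcb11 itself read 10.88 to 11.22 in WT and 2.9 to 3.26 in Abcb11-/- arrays, and the hepatocyte transcript Alb read 13.8 to 13.84 in all 6. The highest signals of the liver arrays were 13.84 to 14.16, so that a difference in Alb could be hidden at the top of the scale.

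Keratins form the intermediate filaments of epithelial cells by pairing a type I with a type II chain. Krt8 (type II) and Krt18 (type I) are the pair of simple epithelia and the main keratins of adult hepatocytes, whereas Krt7 (type II) and Krt19 (type I) are characteristic of bile duct cells, the cholangiocytes. When bile flow is impaired, small ducts and duct-like cells can expand around the portal tracts, which is known as the ductular response, and hepatocytes are known to raise their own keratins under cholestatic stress. Epcam is an epithelial adhesion molecule, Cd24a a small glycosylated surface protein, and Muc1 a transmembrane mucin of luminal surfaces, all found in duct cells and other epithelia.

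Krt8 and Krt18 are neighbours on chromosome 15, and Krt7 lies on the same chromosome, which holds 26 keratin genes in the annotation used. Krt19 and Krt23 lie on chromosome 11 with 27. The promoters of the pair Krt8 and Krt18 are shown because their transcripts moved together in the liver, and that of Krt23 because it had the highest fold change of the 8 genes. Each covers 250 bases before to 50 after the annotated start (RefSeq, GRCm38.p6), written 5′ to 3′ on the gene's strand, and 7 of the 9 genes had an entry. Capitals mark the letters TATAAA, known as the TATA box, and AGGTCA, known as a nuclear receptor half-site, both searched on either strand. The Krt8 promoter is at chr15:102004293-102004592 (minus strand), that of Krt18 at chr15:102027966-102028265 (plus strand) and that of Krt23 at chr11:99493071-99493370 (minus strand).
Krt8: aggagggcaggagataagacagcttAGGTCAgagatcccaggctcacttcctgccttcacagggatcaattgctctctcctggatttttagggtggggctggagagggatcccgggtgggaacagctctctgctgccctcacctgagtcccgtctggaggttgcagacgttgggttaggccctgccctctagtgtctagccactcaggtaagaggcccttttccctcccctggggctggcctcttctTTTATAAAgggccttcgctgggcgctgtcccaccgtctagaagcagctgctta
Krt18: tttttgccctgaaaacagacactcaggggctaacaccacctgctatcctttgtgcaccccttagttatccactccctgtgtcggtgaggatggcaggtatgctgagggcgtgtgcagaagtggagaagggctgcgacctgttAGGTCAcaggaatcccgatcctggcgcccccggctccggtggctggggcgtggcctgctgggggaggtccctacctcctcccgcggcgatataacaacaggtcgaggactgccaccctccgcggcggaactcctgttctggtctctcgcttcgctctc
Krt23: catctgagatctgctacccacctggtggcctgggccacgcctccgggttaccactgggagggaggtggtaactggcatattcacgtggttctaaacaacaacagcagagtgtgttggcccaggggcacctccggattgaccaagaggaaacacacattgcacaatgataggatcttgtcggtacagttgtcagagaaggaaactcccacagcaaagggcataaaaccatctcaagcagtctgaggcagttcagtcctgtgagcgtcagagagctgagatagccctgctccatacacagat

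AGGTCA occurred once in the Krt8 window, at position 26 from its 5′ end, and once in that of Krt18, at position 143. It was found in 16.3% of all 32851 promoters of this length. TATAAA was found in the Krt8 window at positions 248 and 250, a match on each strand that overlap each other, and in 13.6% of all promoters. Of 5 other motifs searched, the Krt8 window also held TGGGAA (RBPJ core), which 25.6% of all promoters held. The Krt18 and Krt23 windows held neither it nor GGGCGG (known as the GC box and found in 35.7% of all promoters), TGANTCA (the AP-1 site, 7.81%), CATTCC (the TEAD site, 14.7%) or GTTAAT (the HNF1 half-site, 7.1%), and the Krt23 window held neither of the motifs in capitals. A match is a description of the letters in the window and not a binding site.

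In the liver, 5 of the 8 genes rose in Abcb11-/- mice: Krt8, Krt18, Krt23, Epcam and Cd24a. None fell, and Krt7, Krt19 and Muc1 did not pass the test (limma, Benjamini-Hochberg adjusted p under 0.05 over all genes). Across all genes, 740 (4.33%) were called higher and 498 (2.91%) lower, 7.24% in all. The median log2 fold change was 0.75 over the 8 genes and 0.00333 over all genes. For the 5 genes called, all 3 Abcb11-/- arrays lay above all 3 WT arrays, a pattern of 13.8% of all genes, and 26% of all genes had groups that did not overlap in either direction. At an unadjusted p under 0.05, the same 5 genes were higher and 0 lower, against 12% of all genes higher and 9.61% lower. Abcb11-/- liver samples are whole tissue, so that more cells of a type and more RNA per cell cannot be told apart.

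**Figure D1:**
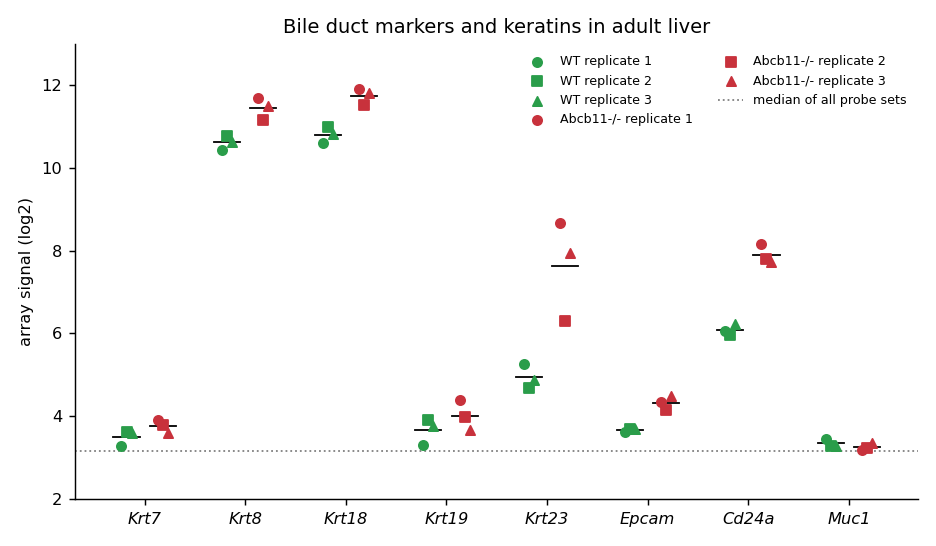
Log2 array signal of the 8 measured genes in the 6 adult liver arrays, each point being 1 array (green WT, red Abcb11-/-, the shape giving the replicate number) and the black bar the mean of 3; the dotted line is the median of all probe sets. The groups are apart for Krt8, Krt18, Krt23, Epcam and Cd24a, and overlap for Krt7, Krt19 and Muc1.

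Krt8 read 10.44, 10.78 and 10.63 in the WT arrays and 11.7, 11.16 and 11.49 in the Abcb11-/- arrays. The groups did not overlap, and Abcb11-/- replicate 2 was nearest to WT. The means were 10.62 ± 0.17 and 11.45 ± 0.272 (SD, n = 3), a 1.78-fold rise (log2 fold change 0.83, SE 0.155, 95% interval 0.47 to 1.19, limma adjusted p = 0.02). The x in this probe set's name marks probes that can also match other transcripts, and the other Krt8 probe set gave 0.97 (SE 0.179, limma adjusted p = 0.0216). Its partner Krt18 read 10.61, 10.99 and 10.82 in WT and 11.92, 11.53 and 11.81 in Abcb11-/-, in the same order of arrays as Krt8. Krt18 rose 1.93-fold (log2 fold change 0.95, SE 0.139, limma adjusted p = 0.00837).

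Within each array, Krt8 minus Krt18 was -0.17, -0.21 and -0.19 in WT and -0.22, -0.37 and -0.32 in Abcb11-/-. The groups did not overlap, and the shift of the mean was -0.11. With the other Krt8 probe set the groups overlapped and the shift was 0.02, so its sign depended on the probe set. It is given as a description, since 3 against 3 arrays allow no exact test that could pass the threshold.

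The ductal keratins did not pass the test. Krt7 read 3.29, 3.61 and 3.59 in WT and 3.9, 3.78 and 3.59 in Abcb11-/-, so that the groups overlapped, with Abcb11-/- replicate 3 within the WT range. Its log2 fold change was 0.26 with a 95% interval of -0.03 to 0.55 (limma adjusted p = 0.292). Krt19 read 3.31, 3.9 and 3.76 in WT and 4.38, 3.99 and 3.66 in Abcb11-/-. Only Abcb11-/- replicates 1 and 2 exceeded every WT array, and the log2 fold change was 0.35 with an interval of -0.14 to 0.85 (limma adjusted p = 0.41). The intervals include rises of up to 0.55 for Krt7 and 0.85 for Krt19 on the log2 scale. The values of both genes lay between 3.29 and 4.38, beside array medians of 3.15 to 3.18, and no detection calls come with them.

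Krt23, a type I keratin known as inducible in injured liver, had the largest change of the 8 genes and ranked 50 of 17097 by the size of its change. It read 5.27, 4.69 and 4.88 in WT and 8.66, 6.3 and 7.94 in Abcb11-/-. The WT arrays lay close together while the Abcb11-/- arrays spanned 2.36 log2 units, with replicate 2 lowest. The means were 4.95 ± 0.296 and 7.63 ± 1.21 (SD, n = 3), a 6.44-fold rise (log2 fold change 2.69, SE 0.529, 95% interval 1.45 to 3.92, limma adjusted p = 0.0244).

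Of the surface proteins, Cd24a had the lowest adjusted p and the highest fold change. It read 6.07, 5.97 and 6.23 in WT and 8.17, 7.81 and 7.72 in Abcb11-/-, with a gap of 1.49 between the highest WT and the lowest Abcb11-/- array. The means were 6.09 ± 0.131 and 7.9 ± 0.238 (SD, n = 3), a 3.51-fold rise (log2 fold change 1.81, SE 0.137, limma adjusted p = 0.000892). Its dimmer probe set gave 1.01 (SE 0.0946, limma adjusted p = 0.00152), so the direction held in both while the size did not.

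Epcam read 3.61, 3.7 and 3.69 in WT and 4.35, 4.15 and 4.5 in Abcb11-/-. All Abcb11-/- arrays were higher, by a 1.59-fold change of the means (log2 fold change 0.67, SE 0.108, limma adjusted p = 0.0123). Its second probe set read 2.98 to 3.17 in WT and 3.32 to 3.35 in Abcb11-/-, also without overlap, but with a log2 fold change of 0.26 it did not pass the test (limma adjusted p = 0.157). Muc1 read 3.45, 3.29 and 3.27 in WT and 3.19, 3.23 and 3.36 in Abcb11-/-. The groups overlapped, and the log2 fold change was -0.08 with an interval of -0.3 to 0.14 (limma adjusted p = 0.72).

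The Abcb11-/- arrays did not respond alike. Of the 5 genes called, 4 were highest in Abcb11-/- replicate 1 (all but Epcam) and 4 were lowest in replicate 2 (all but Cd24a). Replicate 1 also stood apart for 11 cell cycle genes, whose summed linear signal was 144 to 244 in WT, 1080 in that array and 201 and 207 in the others. In that array the summed signals of the stellate cell and fibroblast genes (5200 against 3480 to 4030 in the other 5 arrays) and of the cholangiocyte markers (230 against 149 and 167 in its group) were highest. That of the neutrophil genes was lowest of its group (178 against 517 and 544). The stellate cell and fibroblast genes did not all follow their sum. Col3a1 read 11.53 in that array and 9.43 to 10.55 in the other 5. Acta2 (5.94), Col1a1 (4.19) and Des (4.88) were also highest of all arrays there, whereas Dcn (10.77) and Lrat (7.16) were lowest there. Replicate 2 had the highest summed signal of 10 macrophage genes, 6340 against 2660 and 4300 in the other Abcb11-/- arrays and 2960 to 4280 in WT. Without replicate 1 the 5 genes were called again, as they were without replicate 2. Leaving out Abcb11-/- replicate 3 left 3 called (Krt18, Epcam and Cd24a), and leaving out any WT array left 2 (Krt18 and Cd24a), with log2 fold changes of 2.53 to 2.85 for Krt23, 0.74 to 0.92 for Krt8 and 0.64 to 0.68 for Epcam in the fits that lost them.

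**Figure D2:**
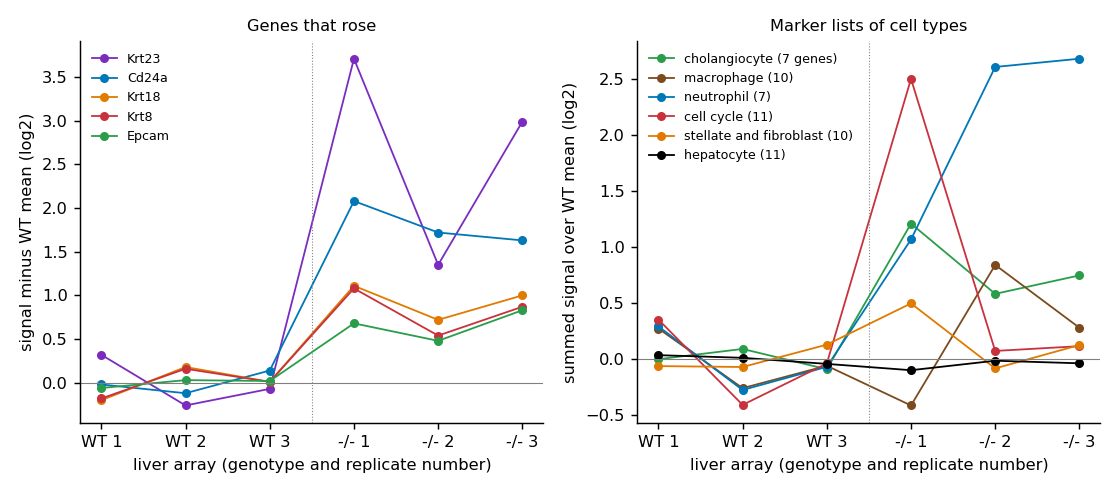
Left, log2 signal of the 5 genes that rose, minus the WT mean, in each liver array; right, log2 of the summed linear signal of marker lists of cell types over the WT mean (number of genes in brackets). Lines join the values of 1 gene or list and have no order in time; replicate 1 of Abcb11-/- is highest for Krt23, Cd24a, Krt18 and Krt8 and for the cell cycle list, replicate 2 for the macrophage list.

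Markers of other cell types moved with genotype in part. Of 7 measured neutrophil genes 4 rose, against 4.33% of all genes. Among the 4 were S100a8 and S100a9, the subunits of calprotectin, with log2 fold changes of 2.84 and 2.62 (limma adjusted p = 0.0212 and 0.0184). The summed signal of the 7 genes was 70.2 to 104 in WT and 178 to 544 in Abcb11-/-. None of 10 macrophage, 5 B cell, 10 stellate cell and fibroblast or 11 cell cycle genes was called. At an unadjusted p under 0.05, 1, 1, 1 and 0 were higher and 0, 0, 1 and 0 lower, against 12% and 9.61% of all genes. Of 11 hepatocyte genes only Cyp2e1 was called, with a fall (log2 fold change -0.5), and 1 was higher and 1 lower at an unadjusted p under 0.05. The higher was Afp, at 4.45, 4.85 and 5.44 in WT and 7.67, 4.87 and 7.41 in Abcb11-/- (log2 fold change 1.74, limma adjusted p = 0.195). The summed signal of the 11 genes was 81000 to 85500 in WT and 77900 to 82600 in Abcb11-/-. The part of these cell types in the changes of Krt8, Krt18, Krt23, Epcam and Cd24a was not tested. Of 7 measured cholangiocyte markers, which include Krt7, Krt19 and Epcam, 3 rose and none fell, against 4.33% and 2.91% of all genes. The 3 were Epcam and, counted again among the other biliary genes below, Sox9 and Pkhd1. The summed signal was 93.5 to 106 in WT and 149 to 230 in Abcb11-/-. The brightest probe set, that of Pkhd1, weighed most in it (log2 signal 5.11 to 5.55 and 6.13 to 6.88). Cftr, the chloride channel of duct cells, read 2.24 to 2.5 in all 6 arrays, below their medians.

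Among 29 other genes of the biliary epithelium, 7 rose and none fell, with a median log2 fold change of 0.32, and at an unadjusted p under 0.05 there were 15 higher and 0 lower, against 12% and 9.61% of all genes. Onecut1 and Aqp1 had the lowest values of the list (log2 fold changes -0.77 and -0.44, limma adjusted p = 0.27 and 0.287). Anxa13, an annexin of polarised epithelia, read 3.01, 2.91 and 2.85 in WT and 5.03, 7.22 and 6.46 in Abcb11-/-. Here Abcb11-/- replicate 1 was the lowest of its group, unlike Krt23, and the mean change was 9.94-fold (log2 fold change 3.31, SE 0.475, limma adjusted p = 0.00777). Bicc1, an RNA-binding protein of tubular epithelia, rose by 2.75 (SE 0.317, limma adjusted p = 0.00353), from 4.32, 4.6 and 5.01 to 8.08, 6.8 and 7.3. Cdh1, which encodes E-cadherin, rose by 1.53 (limma adjusted p = 0.0166) and Sox9, a transcription factor of duct and progenitor cells, by 1.15 (3.14, 2.98 and 2.9 to 4.15, 3.58 and 4.75, limma adjusted p = 0.0414).

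The other 3 that rose were Pkhd1 (fibrocystin) by 1.02, Glis3 by 0.78 and Elf3 by 0.58 on the log2 scale. Prom1 and Lcn2 had changes of 3.12 and 2.74 that missed the threshold (limma adjusted p = 0.0634 and 0.0564). For each, 1 WT array was near the Abcb11-/- level: Prom1 read 7.96, 4.7 and 4.61 in WT against 8.66 to 9.16, and Lcn2 read 5.58, 5.89 and 8.4 against 8.85 to 9.82. Neither pair of groups overlapped. The claudin Cldn7, an Epcam partner, read 2.73, 2.95 and 2.99 in WT and 5.05, 3.57 and 4.12 in Abcb11-/- (log2 fold change 1.36, limma adjusted p = 0.0511). The count of 7 rested on single arrays, with 2 to 11 called on leaving out an array: 4, 2 and 4 without WT replicates 1, 2 and 3, and 8, 11 and 3 without Abcb11-/- replicates 1, 2 and 3.

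**Figure D3:**
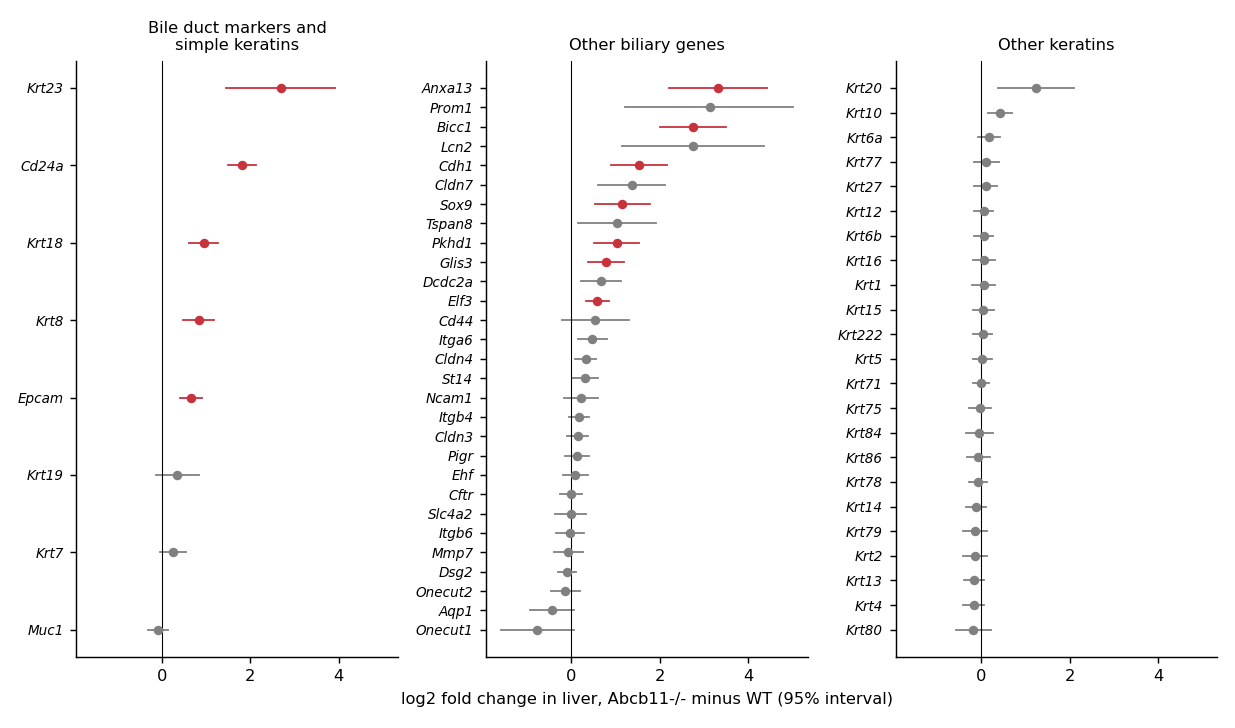
Log2 fold change in liver, Abcb11-/- minus WT, with the 95% interval of the fit, for the 8 genes, 29 other biliary genes and 23 other keratins; red marks genes called higher at an adjusted p under 0.05. Red points are found in the first 2 panels (5 and 7) and none in the panel of other keratins.

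Of 23 other keratins measured, most were keratins of stratified epithelia or hair. By limma 0 passed in either direction, and the median log2 fold change was 0.03. At an unadjusted p under 0.05, 2 were higher and 0 lower, against 12% and 9.61% of all genes. Those 2 were Krt20, a keratin of intestinal and urothelial cells, and Krt10. Krt20 read 2.62, 2.66 and 2.72 in WT and 3.84, 3.09 and 4.79 in Abcb11-/- (log2 fold change 1.24, limma adjusted p = 0.0918). Without Abcb11-/- replicate 2 it was called (1.65, limma adjusted p = 0.0119), the sole case on leaving out an array. Krt20 lies beside Krt23 on chromosome 11, and in both genes Abcb11-/- replicate 2 was the lowest of its group. Krt10 had a change of 0.43 (limma adjusted p = 0.0781).

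Of 20 proteins that anchor or bind keratin filaments, 2 rose and none fell, against 4.33% and 2.91% of all genes, and without Abcb11-/- replicate 2 there were 5 that rose. Ppl, periplakin, which links keratins to the cell border, read 5.55, 5.76 and 5.59 in WT and 7.81, 7.76 and 7.2 in Abcb11-/- (log2 fold change 1.96, SE 0.168, limma adjusted p = 0.0014). Eppk1, epiplakin, which binds and bundles keratins, read 6.79, 6.83 and 6.86 in WT and 9.2, 8.44 and 8.46 in Abcb11-/- (log2 fold change 1.87, SE 0.198, limma adjusted p = 0.00256). Both plakins were 3.88-fold and 3.66-fold higher, more than Krt8 or Krt18, a difference that was not tested. The large linker Plec (0.21) and the desmosomal Dsp (0.43) did not pass.

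Of 23 receptors, ligands and partners of Epcam, Cd24a, Muc1 and Spp1, Cd9 alone was called, a share like the 4.33% of all genes called higher. Without WT replicate 1, 2 or 3 or Abcb11-/- replicate 3 there were 0 calls by limma, and without Abcb11-/- replicates 1 and 2 there were 5 and 4, all higher. At an unadjusted p under 0.05, 6 were higher and 1 lower, against 12% and 9.61% of all genes. Cd9, a tetraspanin found in complexes with Epcam, read 8.3, 8.21 and 8.03 in WT and 9.63, 8.81 and 9.2 in Abcb11-/- (log2 fold change 1.03, SE 0.197, limma adjusted p = 0.0219). Its order over the Abcb11-/- arrays was that of Krt8, Krt18 and Krt23. Ctnnb1, the beta-catenin that Epcam and Muc1 can engage, differed by 0.02 and Egfr by -0.44, and neither passed.

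Of 36 signals known to act on ductular cells, 5 rose and 1 fell, against 4.33% and 2.91% of all genes. Leaving out WT replicate 1, 2 or 3 or Abcb11-/- replicate 3 left 1 higher and 0 lower. The chemokine Ccl2 rose by 1.63 (3.63, 3.57 and 3.17 to 5.53, 4.43 and 5.3, limma adjusted p = 0.0145) and Ccn1, a target of Yap1, by 1.23 (limma adjusted p = 0.0123). Hes1, a Notch target, rose by 0.94 (limma adjusted p = 0.0145), while the ligand Jag1 read 2.61 to 2.89 in all 6 arrays (0.06) and the receptor Notch2 differed by -0.23, and neither passed. The cytokine receptor Osmr rose by 0.77 and Tead1, the DNA-binding partner of Yap1, by 0.52, whereas Vegfa fell by 0.44. Yap1 itself (-0.18), Wwtr1 (0.33), Tead4 (-0.01), Ankrd1 (0.13) and Amotl2 (0.02) did not pass. Nor did Ccn2, whose groups overlapped (1.26, limma adjusted p = 0.102). With the replicate number as a block, 1 of the signals rose and 0 fell. The median over the 36 genes was 0.005.

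The genes whose profile over the 6 liver arrays lay nearest to each riser were found by root mean square distance after centring, with no test of the likeness. Krt8 and Krt18 shared both nearest genes, Samd4 (distances 0.0672 and 0.0925) and Vasn (0.0746 and 0.0871), with log2 fold changes of 0.9 and 0.89. Those of Krt23 were Phlda2 (0.265) and the leiomodin Lmod3 (0.329). Those of Epcam were Tmem218 (0.0213) and the major vault protein Mvp (0.0581). Cd24a was nearest to the sphingomyelinase Smpd3 (0.14) and to Eppk1 (0.14), the keratin-binding plakin described above.

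In the lung, simple keratins, Epcam, Cd24a and Muc1 are genes of the airway and alveolar epithelium. None of the 8 was called between stages or between mothers. The fit used all 6 arrays with stage and mother as terms and left 2 residual degrees of freedom, and in simulated data for these designs it recovered 6%, 13% and 46% of genes changed 2-fold and 55%, 57% and 76% of those changed 4-fold (PN0 minus E18.5, E18.5 minus E17.5 and mother), so that large changes could be missed too. Between E18.5 and PN0, 0 of all genes were called (0% in either direction), with 2098 (12.3%) at an unadjusted p under 0.05. Between E17.5 and E18.5, 9 genes were called higher (0.0526%) and 1 lower (0.00585%), with 12.8% at an unadjusted p under 0.05. Between mothers, 0 genes were called (0% in either direction), with 867 (5.07%) at an unadjusted p under 0.05. In each of the 3 comparisons, 1 of the 8 genes had an unadjusted p under 0.05.

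The E17.5 lung from the Abcb11-/- mother stood apart from the other 5. Of 11 genes typical of hepatocytes, 9 exceeded their level with the WT mother at least 1.5-fold, against 3.47% of all genes, with a summed signal of 19200 against 1420 (Alb 13.01 against 9.05). Of 10 skeletal muscle genes, 9 were higher (3740 against 190). Relative to the WT mother at E17.5, 7 of 11 cell cycle genes were at least 1.5-fold lower, against 3.55% of all genes. Here the array did not stand apart from all others, since its summed signal of 3270 lay between 4760 with that mother and 1040 to 1930 on the later arrays. The alveolar type II marker Sftpc read 13.23 to 13.39 on all 6 arrays, near their highest signals of 13.5 to 13.57. Other lung epithelial markers differed by mother at E17.5. Of 7 type II genes, 3 were at least 1.5-fold higher with the Abcb11-/- mother and 0 lower. Of 8 type I genes 1 was higher and 0 lower, and of 6 club cell genes 2 were higher and 1 lower. A fit without this array has a single array at E17.5 and fewer residual degrees of freedom than that of all 6. The differences of PN0 minus E18.5 do not draw on this array and by design cannot change without it. The other fitted differences below are also given without it. The part of the hepatocyte, muscle, cell cycle and lung epithelial transcripts in these differences was not tested.

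Of the 5 keratins followed, Krt7 had the widest range in the lung (0.74). It read 9.75 with the WT mother and 9.55 with the Abcb11-/- mother at E17.5, 9.92 and 9.89 at E18.5, and 10.3 and 9.74 at PN0. The PN0 lung of the WT mother was highest, and stages differed by no more than the mothers did at PN0. Krt19 read 10.32 and 10.26, 10.54 and 10.34, and 10.15 and 10.17 in the same order. It was highest at E18.5 with either mother and lowest at PN0 with either mother, a difference of -0.28 (limma 95% interval -0.62 to 0.05, adjusted p = 0.476).

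Krt18 read 10.03 and 10.16 at E17.5, 10.05 and 9.87 at E18.5, and 10.35 and 10.4 at PN0. Both PN0 arrays lay above all 4 earlier arrays, and the change from E18.5 was 0.41 (SE 0.144, 95% interval 0.06 to 0.77), with an unadjusted limma p of 0.0292 and an adjusted p = 0.358. Krt8 read 10.59 and 10.67, 10.61 and 10.55, and 10.94 and 10.61. The PN0 lung of the WT mother stood above the rest, whereas that of the Abcb11-/- mother lay among the earlier arrays. The change of Krt8 from E18.5 to PN0 was 0.2 (limma 95% interval -0.18 to 0.57, adjusted p = 0.674).

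**Figure D4:**
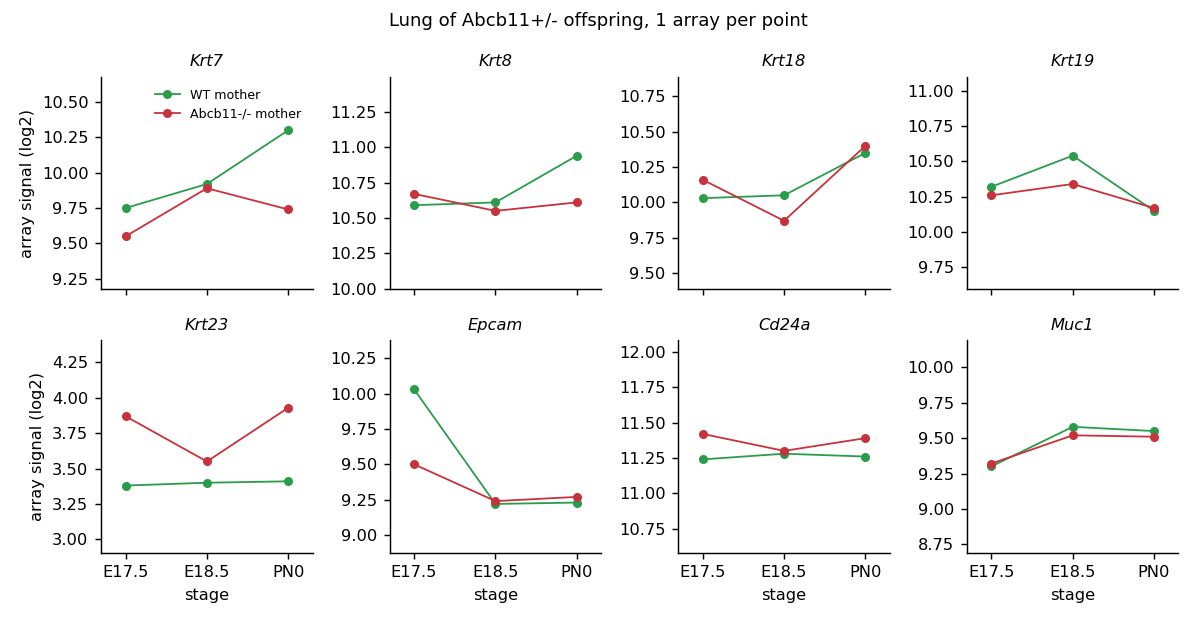
Log2 array signal of the 8 genes in lungs of Abcb11+/- offspring against stage, each point being 1 array, from WT mothers (green) and Abcb11-/- mothers (red); each vertical axis spans 1.5 log2 units around the gene's own range. Epcam is highest in both E17.5 arrays, Krt18 in both PN0 arrays, and Krt23 is higher with the Abcb11-/- mother at each stage.

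Epcam read 10.03 and 9.5 at E17.5, and 9.22 to 9.27 on the 4 later arrays. Both E17.5 arrays were higher than all later ones, and the change from E17.5 to E18.5 was -0.53 (SE 0.185, 95% interval -0.99 to -0.08), with an unadjusted limma p of 0.0288 and an adjusted p = 0.331. Without the E17.5 lung from the Abcb11-/- mother it was -0.81, and with the mean of both Epcam probe sets over all arrays -0.24 (limma adjusted p = 0.598). From E18.5 to PN0 the difference was 0.02 with an interval of -0.44 to 0.47.

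Cd24a had the smallest range of the 8 genes in the lung (0.18), between 11.24 and 11.42 on all 6 arrays. Muc1 read 9.3 and 9.32 at E17.5 and 9.51 to 9.58 on the later arrays. Its 2 earliest values lay below the other 4, by 0.24 from E17.5 to E18.5 (limma 95% interval -0.08 to 0.56, adjusted p = 0.498), and by 0.28 without the E17.5 lung from the Abcb11-/- mother. Krt23, the leading riser of the liver, read 3.38, 3.4 and 3.41 with the WT mother and 3.87, 3.55 and 3.93 with the Abcb11-/- mother, beside array medians of 3.63 to 3.68.

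By mother, none of the 8 genes was at least 1.5-fold apart at any stage. Among all genes, 7.02% were so at E17.5, 3.39% at E18.5 (2.13% higher and 1.26% lower with the Abcb11-/- mother) and 7.04% at PN0 (4.16% higher and 2.88% lower). With 1 array per mother at a stage there is no test. The differences of the 8 genes ran from -0.53 (Epcam) to 0.49 (Krt23) at E17.5, from -0.2 to 0.15 at E18.5, and from -0.56 (Krt7) to 0.53 (Krt23) at PN0. Krt23 was higher with the Abcb11-/- mother in 3 of 3 stages, by 0.39 over the stages (SE 0.126, 95% interval 0.08 to 0.7), with an unadjusted limma p of 0.0226 and an adjusted p = 0.926. Without the E17.5 lung from the Abcb11-/- mother the difference was 0.34.

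Of 23 other keratins, 0 were called by limma over all 6 lung arrays in any of the 3 comparisons, though some had a wide range (5.06 for Krt4 and 4.24 for Krt13). Krt4, a keratin of mucosal squamous epithelium, read 6.29 and 3.22 at E17.5, 8.28 and 7.6 at E18.5, and 3.45 and 3.42 at PN0. Its partner Krt13 read 4.84 and 3.18, 7.05 and 6.21, and 2.82 and 3.45, so that both were highest in the 2 E18.5 arrays. From E18.5 to PN0 Krt4 differed by -4.51 (limma adjusted p = 0.148) and Krt13 by -3.5 (limma adjusted p = 0.145). From E17.5 to E18.5 the differences over all arrays were 3.18 for Krt4 and 2.62 for Krt13. Without the E17.5 lung from the Abcb11-/- mother, where Krt4 read 3.22 against 6.29 with the WT mother, they were 1.83 and 1.84. The differences from E18.5 to PN0 do not draw on that array and by design cannot change without it. The fit without that array has a single array at E17.5 and fewer residual degrees of freedom, so no keratin calls are given from it.

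At an unadjusted p under 0.05, 6 of the 23 were higher and 0 lower at E18.5 than at E17.5 over all arrays. Of all genes, 12.8% passed in either direction. From E18.5 to PN0, 1 was higher and 6 lower, against 12.3% of all genes in either direction. By mother, 0 were higher and 1 lower, against 5.07% of all genes in either direction.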

How the data were processed

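RNA was measured on 12 arrays, from 100 ng each. The authors summarized and normalized the signals by robust multiarray averaging, and the deposited values are log2 (Partek 6.5, per the labels' processing notes). Precision is limited by the number of arrays. Of 45037 probe sets, 28898 had 1 gene, 551 several and 15588 none, and 28689 were matched to current symbols by gene number. For each of 17097 genes the brightest probe set in the tissue was used.

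Liver values were fitted by genotype and lung values by stage and mother with limma 3.58.1 in R 4.3.3, adjusting by Benjamini-Hochberg over all genes (threshold 0.05). Replicate labels were taken as separate mice, and p-values measure the spread between these arrays. Marker sums add linear signals. In simulated data with 200 changed genes, the liver design recovered 85% of 2-fold and 95% of 4-fold changes, with 8 false calls.

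The 9 genes, the gene lists and the motifs were chosen with earlier results of these data known. Named are the 9 genes, up to 4 genes of a list by called change or, with fewer than 2 called, by mean level, and the 2 nearest profiles of each riser. Pkhd1, Glis3, Elf3, Prom1, Lcn2, Cldn7, Cftr, Tead1, Vegfa, Jag1, Notch2, Plec and Dsp were added after their values were seen. So were Onecut1, Aqp1, Afp, Col3a1, Acta2, Col1a1, Des, Dcn, Lrat, Yap1, Wwtr1, Ccn2, Ankrd1, Amotl2 and Tead4 in the liver, and Krt4 and Krt13 in the lung. Alternatives took the mean over a gene's probe sets or other probe sets, kept only genes with a mean of at least 6 (in the liver Krt8, Krt18, Krt23 and Cd24a of the 9), or fitted the values after quantile normalization or median centring, with a trended and robust prior, with a replicate block, without single arrays or stages, and by the methods' t-test.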

Additional observations from a re-analysis of the deposited data

How the results depend on the processing

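In the liver no alternative reversed a gene's direction. Of the 5 genes called, Krt18 and Cd24a stayed called under each alternative except the methods' t-test after Benjamini-Hochberg adjustment, which called 0 of the 8 genes and 26 higher and 23 lower of all genes. At an unadjusted p under 0.05 that test called 5 of the 8 genes, and 1685 higher and 1444 lower of all genes. Leaving out each array in turn gave 2 to 5 of the 8 genes, 314 to 884 higher and 177 to 617 lower. With a trended and robust prior Krt23 missed the threshold (limma adjusted p = 0.0845).

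Same-numbered livers of the 2 genotypes did not deviate together (correlations over genes of -0.0446, -0.0412 and -0.135), so the numbers were not taken as pairs. With the replicate number as a block, 429 genes were called higher and 242 lower, 3 of the 29 other biliary genes rose, and Krt8 missed the threshold (limma adjusted p = 0.0787).

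In the lung none of the 8 genes was called under any alternative. For all genes, PN0 minus E18.5 gave 12 higher and 2 lower with the mean of all probe sets, 13 and 5 with a minimum mean log2 value of 6, 62 and 25 with a trended and robust prior, and, leaving out arrays, 32 to 34 higher and 20 lower. E18.5 minus E17.5 gave 0 lower with the mean of all probe sets, 36 and 9 with the minimum of 6, 0 and 0 after quantile normalization, 130 and 67 with the trended prior, 1 and 0 without PN0, and 142 and 182 without the E17.5 lung from the Abcb11-/- mother. By mother, 1 gene was called higher with the minimum of 6 and 1 with the trended prior. The cause of these shifts was not tested.

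Lung values near 0 changed sign. From E18.5 to PN0, Epcam was -0.09 with the mean of all probe sets and 0 after median centring, and Cd24a 0 after quantile normalization. From E17.5 to E18.5, leaving out PN0 or the E17.5 lung from the Abcb11-/- mother, Krt8 was -0.05 to 0.08 and Cd24a -0.04 to 0.01. By mother, Epcam was 0.02 with the mean of all probe sets and Krt18 -0.01 after quantile normalization. Leaving out a stage or that array, the difference by mother was -0.25 to 0.03 for Epcam, -0.06 to 0.09 for Krt18 (-0.02 without PN0) and -0.19 to 0.01 for Krt8. Signals near the array medians limit what can be read from Krt7, Krt19, Epcam and Muc1 in the liver and from Krt23 in the lung.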
